A study of Mus musculus with 12 samples.

Results

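The MYC, MAX and MXD network was followed across the livers of 2 overgrowth models. Its 10 members were taken by gene symbol: the MYC paralogs Myc, Mycn and Mycl, their partner Max, the antagonists Mxd1, Mxd3, Mxd4, Mxi1 and Mnt, and Mlx, the partner of a parallel branch. They are 10 of 48576 genes listed in the count tables, and each of the 10 passed the filter on low counts. MYC family proteins are basic helix-loop-helix leucine zipper transcription factors that bind DNA as dimers with MAX at E-boxes, a motif with the core CACGTG, and recruit acetyltransferase complexes. MXD proteins, MXI1 and MNT compete for MAX, bind the same motif and recruit SIN3 and histone deacetylases. In the liver, MYC is low in resting adult hepatocytes and is known for driving growth and ribosome production during regeneration and in tumours.

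RNA sequencing of total liver RNA gave 12 libraries in 5 groups. In the YAP model, mice carried Col-TRE-YAPS127A and Rosa26-LSL-rtTA and received AAV-TBG-Cre at 8 to 10 weeks of age. YAPS127A is a form of the Hippo effector YAP that escapes inhibitory phosphorylation. It was induced with doxycycline for 2 weeks (n = 2) or 4 weeks (n = 3), or not induced in the YAP controls, which had the same genotype (n = 2). In the MYC model, LAP-tTA; TRE-MYC mice had MYC switched on at about embryonic day 8, when doxycycline water was withdrawn from the mothers. Livers of these offspring were collected at an age of 4 weeks (n = 3). Mice with LAP-tTA but no TRE-MYC, on the doxycycline schedule of the MYC mice, were the MYC controls (n = 2). No age in weeks was recorded for these controls. The TBG and LAP promoters restrict the transgenes to hepatocytes or liver, and the YAP mice were adults whereas the MYC mice were young. The labels give hepatocytes as the cell type but describe RNA of total liver, so other liver cells contribute. Fewer cells of a type and less RNA per cell cannot be told apart in such samples. The labels do not say that replicates were separate animals, so p-values measure the spread between these samples.

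Libraries held 12511170 to 17690798 counts. Hepatocyte markers were abundant in every library but lower in some groups: the 6 genes summed to 69821 to 88233 CPM at 2 weeks of YAP and 33860 to 72609 CPM at 4 weeks, against 74181 to 87258 CPM in YAP controls, and to 30594 to 52411 CPM in MYC livers, against 103749 to 106065 CPM in MYC controls. Mitochondrially encoded genes took 10.2 to 13.9% of counts at 2 weeks and 7.67 to 11.7% at 4 weeks, against 19.3 to 19.6% in YAP controls, and 15.1 to 20.8% in MYC livers, against 15.02 to 15.8% in MYC controls. CPM are read counts scaled to a common library size with TMM, which holds the typical gene constant between libraries. A gene was called changed when edgeR's quasi-likelihood test gave a Benjamini-Hochberg adjusted p under 0.05 over 17964 tested genes. Log2 fold changes are of the first-named group over the other and are given with their standard error (SE). The counts of Xist and of the Y-linked Ddx3y had a female pattern in 2-week YAP replicate 2 and in the 3 4-week YAP libraries, and a male pattern in the other 8. At 4 weeks, sex and induction cannot be told apart.

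The sequences just upstream of the 4 members that were called in a comparison are shown because E-boxes are the motif the network itself binds. They are the 250 bases before each gene start in RefSeq on GRCm38.p6, written 5′ to 3′ on the strand of the gene, with CACGTG in capitals. The windows are chr12:76962249-76962498 on the minus strand for Max, chr6:86669160-86669409 on the minus strand for Mxd1, chr5:34187711-34187960 on the minus strand for Mxd4 and chr11:101087040-101087289 on the plus strand for Mlx.
Max: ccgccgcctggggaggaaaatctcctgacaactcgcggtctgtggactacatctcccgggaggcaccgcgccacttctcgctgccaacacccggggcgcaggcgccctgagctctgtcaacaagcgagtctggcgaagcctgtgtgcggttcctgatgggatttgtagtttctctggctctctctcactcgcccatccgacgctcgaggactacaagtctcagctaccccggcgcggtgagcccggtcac
Mxd1: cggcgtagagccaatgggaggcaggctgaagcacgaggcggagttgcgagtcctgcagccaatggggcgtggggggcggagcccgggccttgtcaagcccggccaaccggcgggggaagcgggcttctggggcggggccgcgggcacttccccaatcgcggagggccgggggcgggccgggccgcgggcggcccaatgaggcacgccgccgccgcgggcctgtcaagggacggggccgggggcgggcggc
Mxd4: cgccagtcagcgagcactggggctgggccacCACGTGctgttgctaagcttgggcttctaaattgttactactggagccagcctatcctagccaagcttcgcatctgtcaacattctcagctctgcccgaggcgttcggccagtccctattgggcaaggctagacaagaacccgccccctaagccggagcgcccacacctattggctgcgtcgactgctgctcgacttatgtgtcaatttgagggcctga
Mlx: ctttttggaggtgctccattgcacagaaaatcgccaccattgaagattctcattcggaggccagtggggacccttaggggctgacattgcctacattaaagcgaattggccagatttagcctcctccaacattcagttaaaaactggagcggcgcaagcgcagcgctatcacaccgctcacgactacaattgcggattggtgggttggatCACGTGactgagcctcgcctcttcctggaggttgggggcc

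CACGTG, which reads the same on both strands, occurred in the windows of Mxd4, Mlx and Mnt. The match began 219 bases before the start of Mxd4, 40 bases before that of Mlx and 123 bases before that of Mnt. The windows of Max and Mxd1 did not hold these letters. Of the 10 members, 9 had an entry in the promoter table, with 11 windows in all, and Myc had none. Over all 32851 windows of that length, 6.02% held CACGTG. The letters GGAATG, or CATTCC on the other strand, are the core of the motif of the TEAD factors that partner YAP. They were in no member's windows and in 12.6% of all windows. A match is a description of the letters and not of binding.

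Per kilobase of merged exons, Myc was on average the most abundant member in all groups except MYC controls. Levels were divided by the kilobases of merged GENCODE vM21 exons so that genes could be set side by side. Merged exons cover all annotated transcripts of a gene, 8483 bases for Mxd4 and 2717 for Myc, so the order depends on this length. In plain CPM Mxd4 averaged above Myc in YAP controls (70.9 against 30.7) and in MYC livers (68.5 against 25.6). Myc averaged 39.0 ± 0.759 CPM per kb in 2-week YAP livers, 36.0 ± 10.6 in 4-week YAP livers and 11.3 ± 11.7 in YAP controls (SD, n = 2, 3 and 2). The MYC livers averaged 9.43 ± 1.86 CPM per kb of Myc and the MYC controls 4.08 ± 2.28 CPM per kb (SD, n = 3 and 2).

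Myc made up 52.1% of the summed level of the 10 members at 2 weeks of YAP and 49.9% at 4 weeks. Its share of the sum was 36.3% and 7.46% in the 2 YAP controls. In MYC livers the share was 16.0 to 22.3%, against 5.203 and 11.98% in MYC controls. In both sets of induced YAP livers the Myc range lay wholly above that of the next member, whereas in YAP controls and MYC livers it overlapped with that of Mlx.

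In MYC controls the order was led by Mxd4 at 12.8 ± 0.222 CPM per kb, followed by Mlx at 11.8 ± 0.752 (SD, n = 2), and their ranges did not overlap. Max came next, and its range overlapped with that of Myc. The lowest members were Mxd3 and Mycn in all groups except MYC livers. There Mycl and Mycn were lowest, at 0.721 ± 0.833 and 0.297 ± 0.310 CPM per kb (SD, n = 3), and their ranges overlapped with each other and that of Mycl with that of Mxd3.

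**Figure D1:**
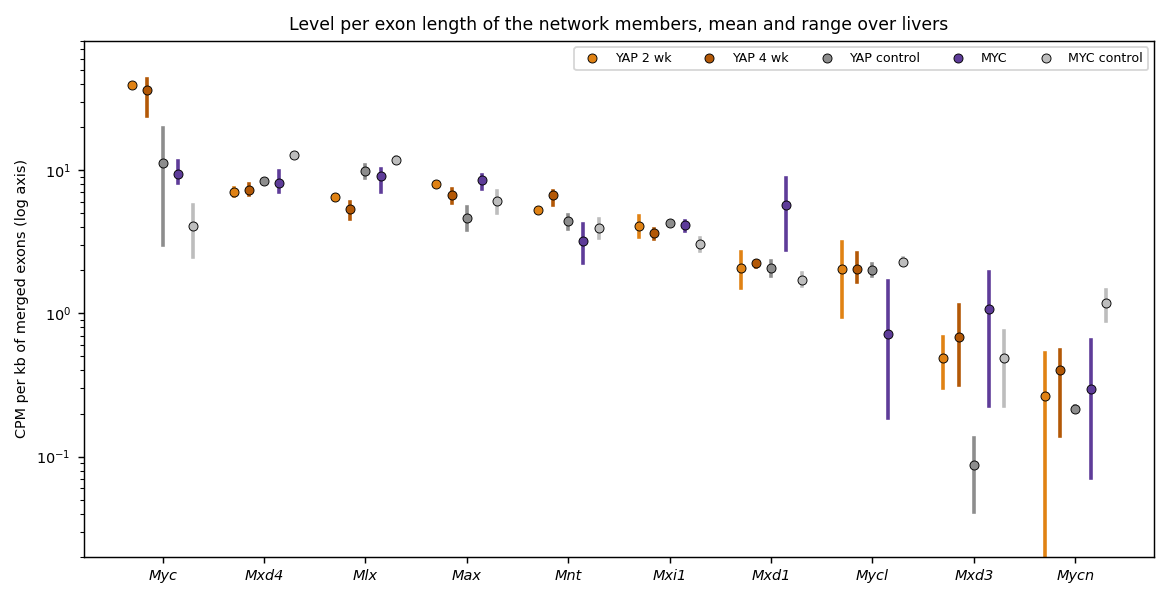
CPM per kb of merged exons (log axis) for each member, with points for group means and bars for the range over the 2 or 3 livers of a group. Myc is highest in both YAP groups, Mxd3 and Mycn sit lowest except in MYC livers, where Mycl and Mycn do, and the bar of Mycn at 2 weeks reaches the edge of the axis because 1 library had 0 counts.

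Myc (ENSMUSG00000022346.15, chromosome 15, 61985391 to 61990374, plus strand of GRCm38) encodes the family member that hepatocytes raise when they enter the cell cycle. It was at 105 and 107 CPM in the 2-week YAP livers and at 117, 64.8 and 111 CPM in the 4-week YAP livers, against 53.2 and 8.17 CPM in YAP controls. Every induced YAP liver was above both controls. The controls stood far apart, with 551 counts in replicate 1 and 77 in replicate 2.

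The log2 fold change of Myc was 1.78 ± 0.70 at 2 weeks (adjusted p = 0.0871) and 1.67 ± 0.66 at 4 weeks (adjusted p = 0.0792), and it was called at neither time. Without YAP control replicate 1, the control that was high for Myc, the values were 3.70 (adjusted p = 0.00471) and 3.59 (adjusted p = 0.00414). Without YAP control replicate 2 they were 0.99 and 0.88. Over all alternatives adjusted p ran from 0.00471 to 0.243 at 2 weeks and from 0.00414 to 0.208 at 4 weeks. DESeq2 on all libraries called Myc at both times (adjusted p = 0.0212 and 0.0154).

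The 6 immediate early genes, transcription factors and other genes that are induced within minutes of a stimulus, also differed between the YAP controls. Fos, a subunit of AP-1, was at 7.73 CPM in YAP control replicate 1 and at 25.5 CPM in replicate 2. Egr1, a zinc finger factor, was at 49.7 CPM in replicate 1 and at 109 CPM in replicate 2. Of the 6 genes, 5 were lower in replicate 1, which had more Myc, and Ier3 was higher, at 2.90 CPM against 2.12 CPM in replicate 2. No cause of the difference in Myc was tested.

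In the MYC model, Myc checks the labels as the targeted gene. It was at 31.4, 23.2 and 22.2 CPM in MYC livers, against 15.5 and 6.71 CPM in MYC controls. All 3 MYC livers lay above both controls, but the log2 fold change of 1.21 ± 0.67 was not called (adjusted p = 0.242). Its direction was kept in all 11 alternatives, from 0.73 without MYC control replicate 2 to 1.93 without MYC control replicate 1, with adjusted p between 0.0587 and 0.662. The labels do not name the species of the TRE-MYC sequence, and reads of a coding sequence that differs from mouse Myc need not be counted here. Whether the level of the mouse gene measures the whole MYC transcript in these livers is therefore not known.

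**Figure D2:**
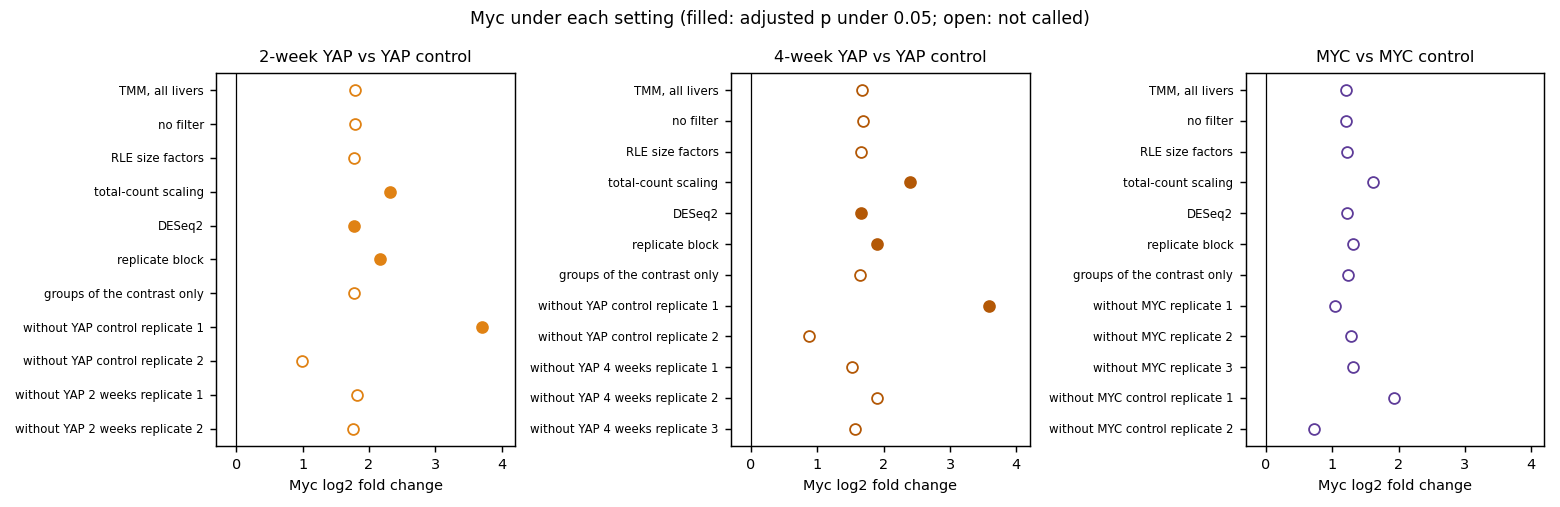
Log2 fold change of Myc in the 3 comparisons with controls under each setting (filled points have an adjusted p under 0.05). All values are above 0, between 0.73 and 3.70, and leaving out either YAP control moves the value more than leaving out any induced YAP liver.

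Mycn (ENSMUSG00000037169.15, chromosome 12, 12936093 to 12941914, minus strand), the paralog of embryonic and neural tissue, was near the limit of detection. It had 0 and 29 counts in 2-week YAP livers, 29, 8 and 30 in 4-week YAP livers and 7 in each YAP control. In CPM the induced YAP livers lay on both sides of the controls at each time. MYC livers had 36, 8 and 4 counts, against 33 and 62 in MYC controls. In CPM this was 2.14, 0.561 and 0.232 in MYC livers, against 2.92 and 4.83 CPM in MYC controls. The MYC livers were all lower, with a log2 fold change of -1.97 ± 1.08 that was not called (adjusted p = 0.235).

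Mycl (ENSMUSG00000028654.13, chromosome 4, 122995652 to 123002485, plus strand), the third paralog, was at 12.8 and 3.83 CPM in 2-week YAP livers and at 10.7, 6.71 and 7.40 CPM in 4-week YAP livers, against 7.34 and 8.91 CPM in YAP controls. These ranges overlapped. Mycl was at 6.79, 1.19 and 0.754 CPM in MYC livers, against 9.81 and 8.73 CPM in MYC controls.

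All MYC livers were below both controls for Mycl, with replicate 1 much nearer to them than the other two. The log2 fold change was -1.66 ± 0.78 (adjusted p = 0.167). Without MYC replicate 1 it was -3.25 (adjusted p = 0.00262), which was the only one of 11 alternatives with a call, and adjusted p reached 0.403 in the others. MYC replicate 1 thus had the highest Myc, Mycn and Mycl of the 3 MYC livers.

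**Figure D3:**
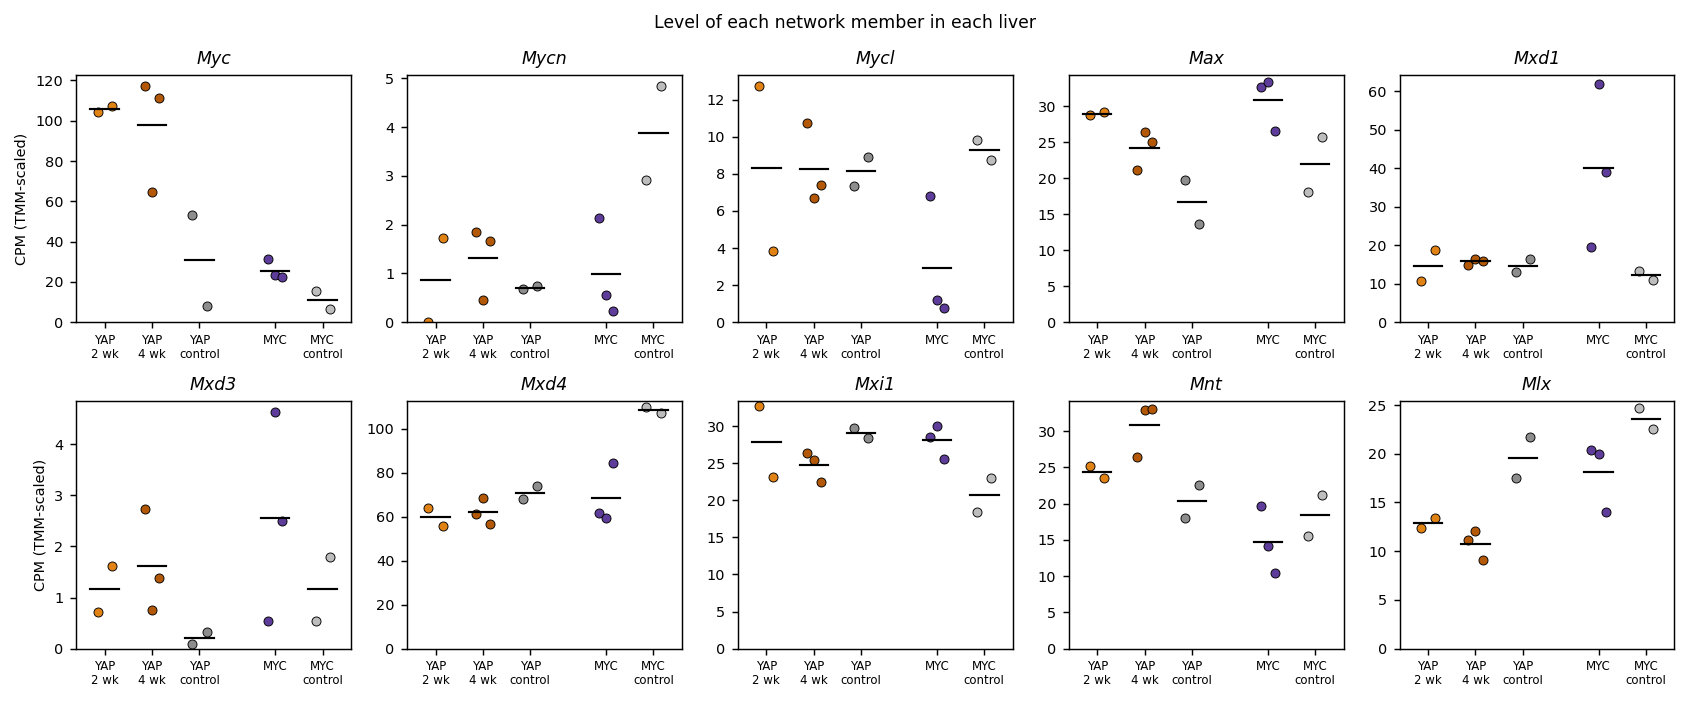
TMM-scaled CPM of the 10 members in each liver, with bars at group means and a separate vertical axis for each gene. Myc is high in all 5 induced YAP livers, Mxd1 is high in MYC livers, Mxd4 is highest in MYC controls and Mlx is lowest in YAP livers.

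Max (ENSMUSG00000059436.13, chromosome 12, 76937269 to 76962201, minus strand) encodes the obligate dimer partner of MYC proteins, which MXD and MNT proteins bind as well. It was at 28.8 and 29.2 CPM in 2-week YAP livers and at 21.2, 26.5 and 25.0 CPM in 4-week YAP livers, against 19.8 and 13.7 CPM in YAP controls. All induced livers were above both controls, by little in the lowest case. MYC livers had 32.8, 33.4 and 26.5 CPM, against 18.1 and 25.7 CPM in MYC controls, and again the groups did not overlap.

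Max rose at 2 weeks of YAP, by 0.79 ± 0.24 on the log2 scale (adjusted p = 0.0281). It was the 1 member of 10 called in that comparison, in which 27.8% of all tested genes were called and 15.1% were called higher. The call of Max was lost when a single library was left out: adjusted p was 0.198 without YAP control replicate 2, 0.0779 without 2-week YAP replicate 1 and 0.105 without 2-week YAP replicate 2. Without 2-week YAP replicate 2 every remaining library of the comparison had a male pattern, and the log2 fold change was 0.79. Over all 10 alternatives adjusted p ran from 0.00405 to 0.198 and the log2 fold change from 0.55 to 1.33.

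At 4 weeks Max had a log2 fold change of 0.53 ± 0.22 (adjusted p = 0.0789), and in MYC livers one of 0.49 ± 0.21 (adjusted p = 0.133). Neither was called. Scaling to total counts, under which the median of all genes shifts upward, called both, at 1.28 (adjusted p = 0.00246) and 0.89 (adjusted p = 0.0272). Over the alternatives adjusted p ran up to 0.444 at 4 weeks and 0.623 in MYC livers.

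Of the antagonists, Mxd1 (ENSMUSG00000001156.9, chromosome 6, 86647042 to 86669161, minus strand) stood out in MYC livers. Mxd1 is best known for its rise as cells leave the cycle and differentiate. It was at 19.7, 61.8 and 38.9 CPM in MYC livers, against 13.4 and 10.9 CPM in MYC controls. Every MYC liver was above the controls, but they spread widely among themselves, with replicate 2 highest and replicate 1 lowest. In YAP livers Mxd1 was at 10.6 and 18.8 CPM at 2 weeks and at 14.99, 16.5 and 16.0 CPM at 4 weeks, against 12.9 and 16.3 CPM in YAP controls. Those ranges overlapped, and its log2 fold changes were smaller than their SE.

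Mxd1 rose in MYC livers by 1.72 ± 0.42 on the log2 scale (adjusted p = 0.0179). This change exceeded that of 4-week YAP livers by 1.61 ± 0.56, a difference that was tested and not called (adjusted p = 0.111). Without MYC replicate 1 that difference was 1.94 (adjusted p = 0.0150), and over its 16 alternatives adjusted p ran up to 0.327. The rise itself lost its call without MYC control replicate 1 (adjusted p = 0.104) or replicate 2 (adjusted p = 0.141), and when only the MYC model was fitted (adjusted p = 0.0615). In the other 8 of its 11 alternatives it was called, with a lowest adjusted p of 0.000678.

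Some markers of blood cells and of dividing cells rose in MYC livers as well. The 5 neutrophil markers, which all rose, summed to 697, 1164 and 546 CPM in MYC livers, against 3.36 to 3.66 CPM in MYC controls. Ly6g had 0 counts in MYC controls. The 5 erythroid markers, of which 2 rose, summed to 132, 670 and 351 CPM in MYC livers, against 64.1 and 77.8 CPM in MYC controls. The 10 proliferation genes summed to 702, 2757 and 1193 CPM in MYC livers, against 160 and 172 CPM in MYC controls. MYC replicate 2 was highest in all 3 sums and in Mxd1. Replicate 3 was lowest in the neutrophil sum, and replicate 1 in both other sums and Mxd1. In 4-week YAP livers the proliferation sum was 142 to 616 CPM, against 35.0 to 37.3 CPM in YAP controls. Some neutrophil markers rose there too, with a sum of 42.8 to 124 CPM, against 2.23 to 4.83 CPM in YAP controls. That sum was below the neutrophil sum of every MYC liver. The Mxd1 ranges of 4-week YAP livers and YAP controls overlapped. The part of these cells in the level of Mxd1 was not tested. Lymphocyte markers were not called in MYC livers and summed to 5.80 to 7.92 CPM, against 4.51 to 4.83 CPM in MYC controls. The 7 macrophage markers, of which 4 rose, summed to 372 to 459 CPM in MYC livers, against 200.1 to 208 CPM in MYC controls. Of these, 1 neutrophil and 1 erythroid marker rose without either MYC control, and 4 erythroid markers rose without MYC replicate 1.

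Mxd4 (ENSMUSG00000037235.13, chromosome 5, 34173883 to 34187720, minus strand), an antagonist of quiescent and differentiated cells, was at 61.8, 59.4 and 84.2 CPM in MYC livers, against 110 and 107 CPM in MYC controls. All MYC livers were below the controls, which lay close together. In the YAP model it was at 64.1 and 55.6 CPM at 2 weeks and at 61.0, 68.4 and 56.7 CPM at 4 weeks, against 68.0 and 73.7 CPM in YAP controls. The 2-week livers lay below the controls, and at 4 weeks replicate 2 overlapped with them.

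Mxd4 fell in MYC livers, by 0.67 ± 0.17 on the log2 scale (adjusted p = 0.0212). Mxd1 and Mxd4 were the 2 of 10 members called in this comparison, in which 18.3% of all tested genes were called, 9.76% higher and 8.56% lower. The fall lost its call without MYC replicate 2 (adjusted p = 0.0781), without MYC control replicate 1 (0.136) or 2 (0.111), in a fit of the MYC model alone (0.0568) and with total-count scaling, where it was -0.24 (adjusted p = 0.419). In the other 6 of 11 alternatives it was called, with a lowest adjusted p of 0.00804. At 2 and 4 weeks of YAP the log2 fold changes were -0.24 ± 0.19 (adjusted p = 0.365) and -0.19 ± 0.17 (adjusted p = 0.414), and total-count scaling turned both positive, to 0.28 and 0.54. Of the 6 hepatocyte markers, 3 (Alb, Apoa1 and Hnf4a) fell in MYC livers as well. MYC replicate 3 had the highest Mxd4 and the lowest sum of the 6 markers, 30594 CPM, which is mostly Alb and Apob. The single markers differed in order among MYC livers. Alb and Ttr were lowest in replicate 3 and Apoa1 in replicate 1. Apob, Hnf4a and Cps1 were lowest in replicate 2, as Mxd4 was. The part of hepatocytes in the level of Mxd4 was not tested. Of the 6, 5 fell without MYC replicate 1, 1 with total-count scaling, and 0 without MYC replicate 2, MYC replicate 3 or either MYC control.

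Mxi1 (ENSMUSG00000025025.14, chromosome 19, 53310518 to 53375810, plus strand), an antagonist with broad expression, varied least of the members, by 1.77-fold over all 12 libraries. It was at 32.7 and 23.1 CPM at 2 weeks of YAP and at 26.4, 25.5 and 22.5 CPM at 4 weeks, against 29.8 and 28.4 CPM in YAP controls. MYC livers had 28.6, 30.1 and 25.7 CPM, against 18.5 and 23.1 CPM in MYC controls. It was thus lower in each 4-week YAP liver and higher in each MYC liver than in the controls of that model. The log2 fold changes were -0.23 ± 0.18 at 4 weeks (adjusted p = 0.357), where total-count scaling gave 0.50, and 0.43 ± 0.19 in MYC livers (adjusted p = 0.128), where it gave 0.84 (adjusted p = 0.0105). The difference between these effects of 0.66 ± 0.26 was not called (adjusted p = 0.145).

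Mnt (ENSMUSG00000000282.12, chromosome 11, 74830920 to 74845725, plus strand), the antagonist present in both resting and cycling cells, was at 25.1 and 23.5 CPM in 2-week YAP livers and at 26.4, 32.9 and 33.0 CPM in 4-week YAP livers, against 18.1 and 22.6 CPM in YAP controls. All induced YAP livers were above the controls. MYC livers had 19.6, 14.2 and 10.4 CPM, against 15.6 and 21.2 CPM in MYC controls, with overlap.

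The log2 fold change of Mnt was 0.60 ± 0.26 at 4 weeks (adjusted p = 0.0938; 1.35 and called with total-count scaling) and -0.32 ± 0.25 in MYC livers (adjusted p = 0.419), and 0.056 in MYC livers with total-count scaling. The difference between the MYC and 4-week YAP effects was -0.92 ± 0.36 and not called (adjusted p = 0.145). Without MYC replicate 1 it was -1.18 (adjusted p = 0.0413) and with total-count scaling -1.29 (adjusted p = 0.0472), the 2 of 16 alternatives with a call; adjusted p reached 0.442 in the others.

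Mxd3 (ENSMUSG00000021485.14, chromosome 13, 55325168 to 55329823, minus strand), the family member that is expressed in S phase of dividing cells, was scarce. It had 10 and 27 counts in 2-week YAP livers and 43, 13 and 25 in 4-week YAP livers, against 1 and 3 counts in YAP controls. In CPM these were 0.708 and 1.61 at 2 weeks and 2.73, 0.746 and 1.39 at 4 weeks, against 0.0966 and 0.318 in YAP controls. All 5 induced livers were above both controls. MYC livers had 0.536, 4.63 and 2.50 CPM, against 0.530 and 1.79 CPM in MYC controls, with overlap.

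The log2 fold change of Mxd3 was 2.47 ± 1.22 at 2 weeks (adjusted p = 0.153) and 2.94 ± 1.16 at 4 weeks (adjusted p = 0.0702), and it was called at neither time. At 4 weeks it was called without the filter on low counts (adjusted p = 0.0470), with total-count scaling (0.0244) and by DESeq2 (0.0316), and adjusted p reached 0.291 in the other alternatives. The 10 proliferation genes summed to 276 and 519 CPM at 2 weeks and to 616, 142 and 226 CPM at 4 weeks, against 37.3 and 35.0 CPM in YAP controls. The order of the 3 4-week livers, with replicate 1 highest and replicate 2 lowest, was that of Mxd3, and a part of cycling cells in it was not tested. Mxd3 shares 105 exon bases, 4.43% of its exons, with Prelid1 on the opposite strand. Prelid1 had 21085 counts over all 12 libraries, whereas Mxd3 had at most 66 in a library. The strand setting of the counting is not given in the sources used here, so reads there cannot be told apart.

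Mlx (ENSMUSG00000017801.15, chromosome 11, 101087277 to 101092207, plus strand) encodes the MAX-like partner of the glucose-sensing factors MLXIP and MLXIPL and can also dimerise with MXD1, MXD4 and MNT proteins. It was at 12.4 and 13.5 CPM in 2-week YAP livers and at 11.1, 12.04 and 9.06 CPM in 4-week YAP livers, against 17.5 and 21.7 CPM in YAP controls. All induced livers were below both controls. MYC livers had 20.4, 20.0 and 14.05 CPM, against 24.7 and 22.5 CPM in MYC controls, and were all lower too.

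Mlx fell at 4 weeks of YAP, by 0.87 ± 0.21 on the log2 scale (adjusted p = 0.00985). It was the 1 member of 10 called at 4 weeks, where 33.8% of all tested genes were called and 15.7% were called lower. The call was lost without YAP control replicate 2 (adjusted p = 0.0946) and with total-count scaling (-0.14, adjusted p = 0.634), and was kept in the other 9 of 11 alternatives, with a lowest adjusted p of 0.00315. Total-count scaling moved the median log2 fold change of all genes to 0.91, against 0.18 with TMM, so relative to that median Mlx was at -1.05 with either scaling. The 2-week fold change of Mlx was -0.60 ± 0.24 on the log2 scale (adjusted p = 0.0787). In MYC livers it was -0.38 ± 0.21 (adjusted p = 0.238), where total-count scaling gave 0.022. Mlx shares 385 exon bases, 19.3% of its exons, with Psmc3ip on the opposite strand. Psmc3ip had 526 counts over all 12 libraries, and how reads in the shared bases were assigned was not tested.

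**Figure D4:**
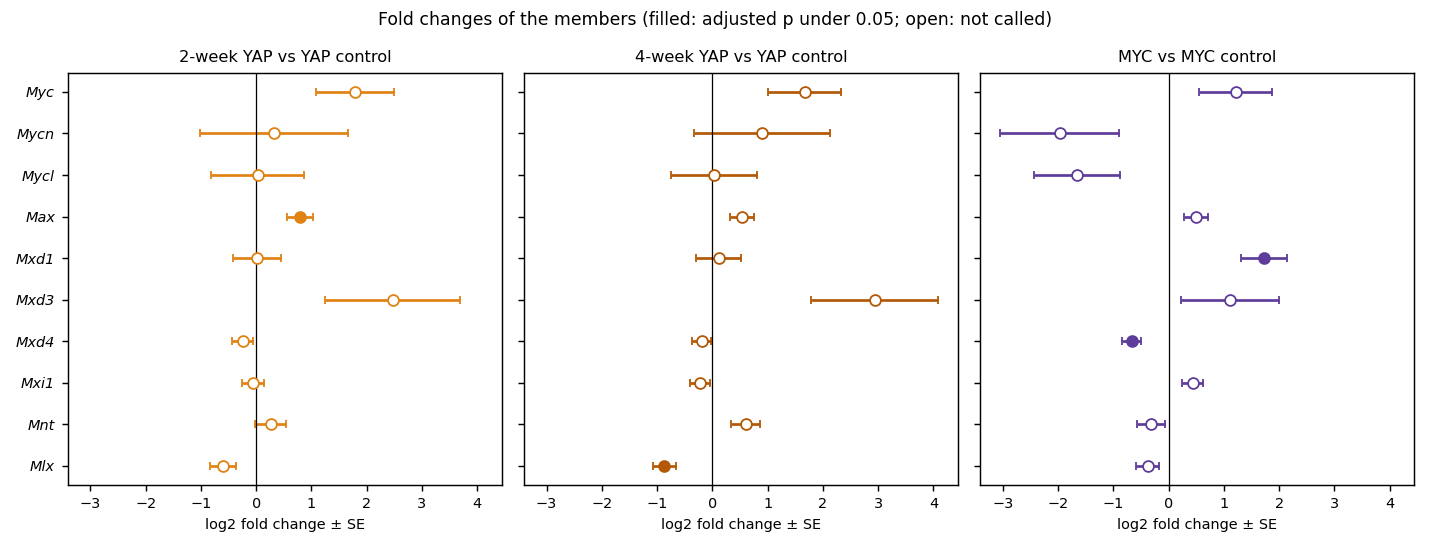
Log2 fold change ± SE of the 10 members against the controls of each model (filled points have an adjusted p under 0.05). Max at 2 weeks of YAP, Mlx at 4 weeks of YAP, and Mxd1 and Mxd4 in MYC livers are filled, and the wide bars belong to Myc, Mycn, Mycl and Mxd3.

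Over the whole network, 1, 1 and 2 of 10 members were called at 2 weeks of YAP, at 4 weeks of YAP and in MYC livers, shares below or near those of all tested genes. The 2 YAP times share the same controls. The libraries of the compared groups did not overlap for 6, 6 and 8 of the 10 members, where this held for 66.6%, 59.9% and 53% of all tested genes. An unadjusted p under 0.05 was reached by 3, 5 and 4 members, and by 40.5%, 44.9% and 32.9% of all tested genes. The median log2 fold change of the members was 0.14, 0.32 and 0.056, beside 0.10, 0.18 and 0.020 over all tested genes. Between 4 and 2 weeks of YAP edgeR called 0 members, with 0 at an unadjusted p under 0.05, and DESeq2 also called 0, where edgeR called 0.0612% of all tested genes and 6.96% had an unadjusted p under 0.05. The 4-week and 2-week libraries did not overlap for 3 members, and for 20.9% of all tested genes. The difference between the MYC and 4-week YAP effects was called for 0 members by edgeR and 0 by DESeq2, with 3 (Mxd1, Mnt and Mxi1) at an unadjusted p under 0.05. Of all tested genes, 7.48% were called there, 3.15% with the higher and 4.33% with the lower MYC effect, and 24.5% had an unadjusted p under 0.05.

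The members were also set against each other within each library. These ratios use levels per kb, so they depend on merged exon length, 2717 bases for Myc and 8483 for Mxd4. In plain CPM the 5 antagonists together exceeded the 3 MYC paralogs in every library. The summed level per kb of the 3 MYC paralogs was 2.13 and 2.23 times that of the 5 antagonists in 2-week YAP livers and 2.32, 1.19 and 2.17 times in 4-week YAP livers, against 1.19 and 0.269 times in YAP controls. The lowest induced liver thus met the higher control. In MYC livers, without a count of any transgene reads that differ from the mouse gene, the ratio was 0.743, 0.358 and 0.375, against 0.426 and 0.266 in MYC controls. Those ranges overlapped.

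The ratio of antagonists to Max was 2.44 and 2.27 in 2-week YAP livers and 3.40, 2.93 and 2.87 in 4-week YAP livers, against 3.30 and 5.31 in YAP controls. The ratio was 2.06, 2.71 and 3.05 in MYC livers, against 4.201 and 3.20 in MYC controls. The 2-week YAP and the MYC livers lay below their controls, and the 4-week YAP livers overlapped with theirs. The ratios describe transcripts and not proteins.

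**Figure D5:**
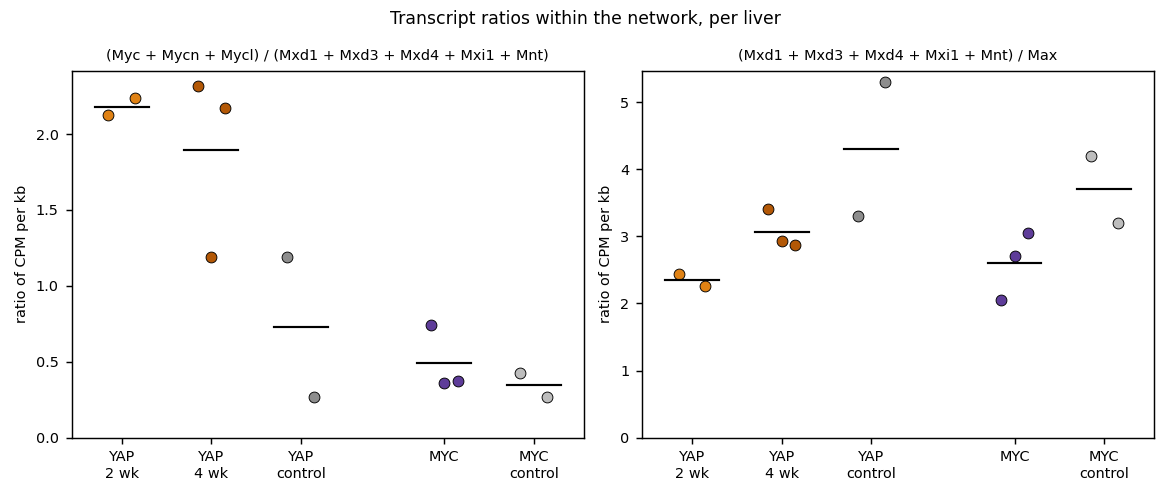
Ratios of summed CPM per kb in each liver, with bars at group means: the MYC paralogs over the 5 antagonists (left) and the antagonists over Max (right). The left ratio is above 2 in 4 of the 5 induced YAP livers and at most 0.743 in the MYC model, and the right ratio is lowest in MYC replicate 1. Both ratios depend on merged exon length, and in plain CPM the antagonists exceeded the paralogs in every library.

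For each called member, the 3 genes with the most similar profile over the 12 libraries were found among 14405 genes by the root mean square difference in centred log2 CPM, with gene models left out. Closest to Max were Parp2 at 0.14, a DNA repair enzyme, Kat5 at 0.17, an acetyltransferase that MYC recruits, and BC017643 at 0.17. The profile of Max itself had a root mean square of 0.36. Closest to Mlx, with 0.44, were Armc1 at 0.14, Cln8 at 0.16 and Fam136a at 0.17.

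Closest to Mxd1, with a root mean square of 0.71, were Atp2b4, a calcium pump, at 0.18, Fzr1, an activator of the anaphase-promoting complex, at 0.27 and Herc1 at 0.28. Atp2b4 averaged 57.6 CPM in MYC livers, against 14.9 CPM in MYC controls, and 17.9 to 18.8 CPM in the groups of the YAP model. Closest to Mxd4, with 0.32, were Atg4c, an autophagy protease, at 0.14, Smagp at 0.16 and Ywhae, a 14-3-3 protein, at 0.16. Libraries of 1 group share their treatment, so these likenesses partly describe the groups.

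Beyond the 10 members, 5 genes of the extended network were followed: Mga, Mlxip, Mlxipl, Txnip and Arrdc4. At 2 weeks of YAP 1 rose and 1 fell, at 4 weeks 1 rose, and in MYC livers 1 fell. The counts of this list and of those below stand beside the shares of all tested genes. Called higher were 15.1% at 2 weeks of YAP, 18.1% at 4 weeks and 9.76% in MYC livers. Called lower were 12.7%, 15.7% and 8.56%. Mlxip, which encodes the cytosolic glucose sensor MondoA, rose at 2 weeks to 38.1 ± 14.98 CPM in YAP livers (SD, n = 2), against 13.9 ± 2.52 CPM in YAP controls (SD, n = 2), with a log2 fold change of 1.46 ± 0.28 (adjusted p = 0.00319). Mlxipl, which encodes ChREBP, the main MLX partner of hepatocytes, fell in MYC livers to 155 ± 50.1 CPM (SD, n = 3), against 442 ± 40.0 CPM in MYC controls (SD, n = 2), with a log2 fold change of -1.51 ± 0.36 (adjusted p = 0.0170). At 2 weeks of YAP it fell to 121 ± 29.4 CPM (SD, n = 2), against 392 ± 10.0 CPM in YAP controls (SD, n = 2; adjusted p = 0.0122). The falls of Mlxipl were counted as 0 with total-count scaling, without YAP control replicate 2 or 2-week YAP replicate 2 at 2 weeks, and without MYC replicate 2 or either MYC control in MYC livers. The rise of Mlxip at 4 weeks was lost without YAP control replicate 2, leaving 0.

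Of 16 cofactors and corepressors, 1 rose at 2 weeks of YAP, 3 at 4 weeks and 3 in MYC livers, and 0 fell. Of all tested genes, 15.1%, 18.1% and 9.76% rose in these comparisons. Trrap, the scaffold of the acetyltransferase complexes that MYC recruits, was at 179 ± 5.66 CPM at 2 weeks (SD, n = 2) and 190 ± 11.3 CPM at 4 weeks (SD, n = 3), against 83.9 ± 4.82 CPM in YAP controls (SD, n = 2). It rose by 1.10 ± 0.19 and 1.17 ± 0.18 on the log2 scale (adjusted p = 0.00210 and 0.000826) and kept its call in all alternatives at both times. In MYC livers Hcfc1, a MYC-binding chromatin cofactor, was at 186 ± 28.5 CPM (SD, n = 3), against 108 ± 0.137 CPM in MYC controls (SD, n = 2; log2 fold change 0.78 ± 0.17, adjusted p = 0.00989). Hdac1, a deacetylase of the SIN3 complex, was at 29.7 ± 6.31 CPM in MYC livers, against 13.9 ± 0.119 CPM in MYC controls (log2 fold change 1.10 ± 0.24, adjusted p = 0.0101). The 3 rises in MYC livers were 0 without either MYC control, and the 3 at 4 weeks were 1 without YAP control replicate 1 or 4-week YAP replicate 3. At 2 weeks the count was 2 without 2-week YAP replicate 1. With total-count scaling 8, 16 and 5 of the 16 rose.

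Of 12 genes that control MYC turnover, 3 rose and 1 fell at each YAP time, and 1 rose and 1 fell in MYC livers. Skp2, a ubiquitin ligase subunit that binds MYC, was at 10.4 ± 0.730 CPM at 2 weeks (SD, n = 2) and 9.71 ± 2.36 CPM at 4 weeks (SD, n = 3), against 3.37 ± 0.564 CPM in YAP controls (SD, n = 2). In MYC livers it was at 15.7 ± 5.31 CPM (SD, n = 3), against 3.87 ± 0.595 CPM in MYC controls (SD, n = 2). It rose in all 3 comparisons, by 1.62 ± 0.37, 1.52 ± 0.34 and 2.02 ± 0.34 on the log2 scale (adjusted p = 0.00798, 0.00658 and 0.00321).

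Ppp2r5a, a phosphatase subunit that targets MYC for degradation, fell in the same 3 comparisons, to 89.7 ± 14.4 CPM at 2 weeks of YAP and 92.4 ± 11.4 CPM at 4 weeks, against 169 ± 25.7 CPM in YAP controls (SD, n = 2, 3 and 2). It fell to 114 ± 10.9 CPM in MYC livers, against 180 ± 1.68 CPM in MYC controls (SD, n = 3 and 2). With total-count scaling 0 of the 12 genes fell in any of these comparisons. Without YAP control replicate 2, 0 turnover genes rose at either YAP time, and 1 rose at 2 weeks without 2-week YAP replicate 2. In MYC livers 0 rose without MYC control replicate 1 and 2 rose without MYC replicate 1. The falls were 0 without YAP control replicate 1 or 2-week YAP replicate 2 at 2 weeks, and 0 without MYC replicate 2, MYC replicate 3 or either control in MYC livers.

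Of 30 genes known as induced targets of MYC, 6 rose and 2 fell at 2 weeks of YAP, 6 rose and 5 fell at 4 weeks, and 5 rose and 0 fell in MYC livers. Their median log2 fold change was 0.15, 0.022 and 0.24, beside 0.10, 0.18 and 0.020 over all tested genes. Npm1, the nucleolar chaperone nucleophosmin, was at 306 ± 43.0 CPM in MYC livers (SD, n = 3), against 140 ± 5.90 CPM in MYC controls (SD, n = 2), and rose by 1.13 ± 0.18 on the log2 scale (adjusted p = 0.00226). It kept its call in all alternatives there and at 2 weeks of YAP. Ldha, lactate dehydrogenase A, fell at 4 weeks of YAP to 285 ± 98.9 CPM (SD, n = 3), against 781 ± 34.5 CPM in YAP controls (SD, n = 2; log2 fold change -1.45 ± 0.27, adjusted p = 0.00214).

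Mrto4, a ribosome assembly factor, was at 11.4 ± 0.403 CPM at 4 weeks of YAP (SD, n = 3), against 24.3 ± 1.25 CPM in YAP controls (SD, n = 2; log2 fold change -1.08 ± 0.16, adjusted p = 0.000676), and at -0.35 with total-count scaling (adjusted p = 0.152). It was the 1 induced target whose MYC effect differed from its 4-week YAP effect, by 1.05 ± 0.23 (adjusted p = 0.0209), and that difference lost its call in 7 of 16 alternatives.

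The counts of induced targets depended on single libraries. At 2 weeks 1 rose without 2-week YAP replicate 2, and the 2 falls were 0 or 1 without any 1 of the 4 libraries. At 4 weeks 2 rose without YAP control replicate 1 and 1 without replicate 2, and 3 fell without either control or without 4-week YAP replicate 2. In MYC livers 2 rose without MYC replicate 2 and 1 without either MYC control. With total-count scaling 12, 16 and 11 of the 30 rose and 1, 2 and 0 fell.

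Of 7 genes known to be repressed by MYC, 2 rose and 2 fell at 2 weeks of YAP, 3 rose and 2 fell at 4 weeks, and 1 rose and 1 fell in MYC livers. Cdkn1a, the CDK inhibitor p21 and a target of p53 as well, was at 58.1 ± 13.99 CPM at 2 weeks (SD, n = 2) and 47.7 ± 9.97 CPM at 4 weeks (SD, n = 3), against 0.859 ± 0.0147 CPM in YAP controls (SD, n = 2). In MYC livers it was at 40.1 ± 13.7 CPM (SD, n = 3), against 9.58 ± 3.07 CPM in MYC controls (SD, n = 2). It rose by 6.07 ± 0.46, 5.78 ± 0.44 and 2.07 ± 0.33 on the log2 scale (adjusted p = 5.28e-05, 2.81e-05 and 0.00245), and the MYC effect minus the 4-week YAP effect was -3.71 ± 0.53 (adjusted p = 0.00286). Each of these calls held in all alternatives.

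Cebpa, a factor of hepatocyte differentiation, fell to 133 ± 26.8 CPM at 2 weeks of YAP and 145 ± 25.9 CPM at 4 weeks, against 353 ± 9.05 CPM in YAP controls (SD, n = 2, 3 and 2). In MYC livers it fell to 161 ± 28.9 CPM, against 329 ± 6.12 CPM in MYC controls (SD, n = 3 and 2), and that call was lost without either MYC control, leaving 0 falls. Of the counts, the rises became 1 without YAP control replicate 2 at either YAP time and without either 2-week library at 2 weeks, and 3 without MYC replicate 1 in MYC livers. The falls became 1 without either YAP control or 2-week YAP replicate 2 at 2 weeks, and 2 without MYC replicate 1 in MYC livers. With total-count scaling 4, 5 and 3 rose.

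The 6 immediate early genes were followed as regulators that rise with Myc after a stimulus. In MYC livers 5 fell and 1 rose. Egr1 was at 18.1, 9.67 and 17.1 CPM in MYC livers, against 462 and 557 CPM in MYC controls (log2 fold change -5.09 ± 0.53, adjusted p = 0.000518). Fos was at 0.536, 0.631 and 0.348 CPM in MYC livers, against 16.0 and 25.3 CPM in MYC controls (log2 fold change -5.35 ± 0.60, adjusted p = 0.000552). The groups were far apart for both genes, and the calls held in all alternatives.

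Junb, an AP-1 subunit, fell to 15.8 ± 3.41 CPM in MYC livers, against 139 ± 2.44 CPM in MYC controls, and Jun to 63.8 ± 25.7 CPM in MYC livers, against 267 ± 14.6 CPM in MYC controls (SD, n = 3 and 2). For Egr1, Jun, Junb and Atf3, both MYC controls were above every YAP-model library. Jun was at 277 and 256 CPM in MYC controls and at 59.3 to 102 CPM in the YAP model. MYC livers were below every YAP-model library for Egr1, Fos and Junb, and overlapped with them for Jun and Atf3. What part high controls had in these falls was not tested. The difference between the MYC and 4-week YAP effects was called for 5 of the 6, and for Egr1 it was -5.50 ± 0.74 (adjusted p = 0.00296). In the same MYC livers Myc lay above its controls. The 1 rise in MYC livers, Ier3, was 0 without any 1 of the 5 libraries. In the YAP model 2 rose at 2 weeks and 1 at 4 weeks and 0 fell. The 2 rises became 0 without YAP control replicate 1 or 2-week YAP replicate 2 and 1 without YAP control replicate 2.

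Of the 10 proliferation genes, 10 rose at 2 weeks of YAP, 9 at 4 weeks and 6 in MYC livers. At 2 weeks the count was 3 and 2 without YAP control replicate 1 and 2, and 5 without 2-week YAP replicate 2. At 4 weeks it was 4 and 2 without YAP control replicate 1 and 2. In MYC livers it was 2 without MYC replicate 2 and 0 without either MYC control, 3 with a replicate block and 2 without the filter on low counts, whereas DESeq2 and total-count scaling called all 10.

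Markers of hepatocytes and of other cells moved with the YAP comparisons too. Of the 6 hepatocyte markers, 1 fell at 2 weeks and 4 at 4 weeks (Apob, Ttr, Hnf4a and Cps1). At 2 weeks 3 fell without 2-week YAP replicate 1. At 4 weeks 2 fell with total-count scaling, and 2 without either YAP control or 4-week YAP replicate 2 or 3. The 7 macrophage markers, of which 6 rose at 2 weeks and 5 at 4 weeks, summed to 1033 to 1077 CPM at 2 weeks and 432 to 759 CPM at 4 weeks, against 173 to 198 CPM in YAP controls. Of the 5 cholangiocyte markers, 2 rose at 2 weeks (Sox9 and Spp1) and 3 at 4 weeks (Sox9, Spp1 and Epcam). Krt19 and Krt7 were called at neither time. The 5 summed to 563 to 1180 CPM at 2 weeks and 396 to 3074 CPM at 4 weeks, against 105 to 116 CPM in YAP controls. Spp1 made up most of each sum. The 7 skeletal muscle markers, of which 6 rose at 2 weeks and 2 at 4 weeks, summed to 427 to 463 CPM at 2 weeks and 2.22 to 16.1 CPM at 4 weeks, against 0 to 0.483 CPM in YAP controls, where 6 of the 7 had 0 counts. The 5 neutrophil markers, of which 3 rose at each time, summed to 16.2 to 170 CPM at 2 weeks and 42.8 to 124 CPM at 4 weeks, against 2.23 to 4.83 CPM in YAP controls, where Ly6g and Mpo had 0 counts. Without either YAP control 0 neutrophil markers rose at either time, 0 cholangiocyte markers at 2 weeks and 1 muscle marker at 4 weeks. At 2 weeks 0 neutrophil and 0 cholangiocyte markers rose without 2-week YAP replicate 2, and at 4 weeks 1 muscle marker rose without 4-week YAP replicate 2. The part of these cells, and of the lower mitochondrial share in induced YAP livers, in the levels of Myc, Max and Mlx was not tested.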

How the data were processed

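The deposited values were raw read counts per gene symbol, whole numbers in 1 table per library. The submitters' processing notes name the build GRCm38 (mm10), featureCounts 1.6.3, HISAT2 2.1.0, Trim Galore 0.4.1 and DESeq2 1.20.0. The annotation release, strand setting and treatment of multiply mapped reads are not given in the sources used here. The library kit was Nugen's Ovation for mouse, per the labels' protocols. Over 9 pairs of libraries of 1 group, chi-square divided by its degrees of freedom was 11.2 to 107, above the value near 1 that counting error alone gives.

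The test was edgeR 4.0.16 under R 4.3.3, with filterByExpr, TMM scaling and a robust quasi-likelihood fit of 1 mean per group over all 12 libraries (7 residual degrees of freedom, common biological coefficient of variation 31.5%). Tests were two-sided, over 5 contrasts, with Benjamini-Hochberg adjustment over 17964 genes. SE is the log2 fold change divided by the square root of F, and a fold change is printed only where its size exceeds its SE. The fit was tested on simulated data. Alternatives were no filter, RLE size factors, total-count scaling, DESeq2 1.42.0, a replicate block, a fit of the compared groups alone, and leaving out each library. The members, the gene lists and the rule for named genes (all members, up to 4 called genes per list and comparison by p, and the 3 most similar profiles per called member) were chosen with earlier results of these data known; examples that held without single libraries were preferred. Lists were described by counts and medians, with no list test. Coordinates came from GENCODE vM21 and upstream sequences from RefSeq.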

Additional observations from a re-analysis of the deposited data

How the results depend on the processing

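Small groups and scaling limited these results. With 2 or 3 libraries a group, each of the 4 called members (Max, Mlx, Mxd1 and Mxd4) lost its call when at least 1 library of its comparison was left out. The number of members called at 2 weeks of YAP was 1 in the results above, 3 with total-count scaling, 2 with DESeq2, and 0 to 2 when a library was left out. At 4 weeks it was 1, and 2 without a filter, 6 with total-count scaling, 3 with DESeq2 and 0 to 2 when a library was left out. In MYC livers it was 2, and 3 with total-count scaling (Max, Mxd1 and Mxi1), 0 when only the groups of the contrast were fitted and 0 to 3 when a library was left out. For the difference between the MYC and 4-week YAP effects it was 0, and 1 with total-count scaling and 0 to 3 when a library was left out. Between 4 and 2 weeks of YAP it was 0 in all 11 alternatives. Total-count scaling turned the log2 fold changes of Mxd4 to 0.28 at 2 weeks of YAP and 0.54 at 4 weeks, of Mxi1 to 0.50 at 4 weeks, of Mnt to 0.056 and Mlx to 0.022 in MYC livers, and of the induced targets Bop1 to 0.0496 and Apex1 to 0.11 at 4 weeks. It raised the median of all genes by 0.54 at 2 weeks, 0.73 at 4 weeks and 0.41 in MYC livers.

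The labels do not say that replicate numbers pair the livers. The deviations of same-numbered livers correlated at -0.011 to 0.062 over 17964 genes. This gave no sign of pairing, but groups of 2 or 3 libraries cannot settle it. With the number as a replicate block, 3 members were called at 2 weeks of YAP and 2 at 4 weeks, with Myc called at both times (log2 fold change 2.16 and 1.90, adjusted p = 0.0323 and 0.0426). Mlx was then called at 2 weeks too (adjusted p = 0.0482), and among the members the block changed no other call. The alternatives for the counts of genes in the lists were chosen after the data were seen. Mycn and Mxd3 had at most 66 counts in a library, which limits their fold changes.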
